A study of Mus musculus with 10 samples.

Results

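The genes of the major histocompatibility complex (MHC) and of antigen presentation were followed in RNA from ventricles of MLPKO and MLPKO-cRADKO mice. The set took every protein-coding gene whose symbol starts with H2-, together with B2m, Cd74, Tap1, Tap2, Tapbp, Ciita and Nlrc5, and held 47 of the 57185 genes with counts. Of these, 30 encode class I chains, 10 encode class II chains or the accessory class II chains DM and DO, and 7 are partners or regulators. Both groups lacked muscle LIM protein, the product of Csrp3, which leads to dilated cardiomyopathy, and both carried floxed alleles of the gene for RAD. MLPKO mice (MLPKO-RADfl/fl) had no Cre. MLPKO-cRADKO mice also carried MYH6-MerCreMer, a tamoxifen-induced recombinase driven by a cardiomyocyte promoter, so that RAD was deleted in cardiomyocytes and not by design in other cells. Tamoxifen went to all mice at 10 weeks of age (100 mg per kg), and hearts were taken 1 month later. The labels give 16 weeks of age for the samples, which were 5 male mice per genotype with 1 library each, made from the apical part of the ventricles. The mouse strain, and so the MHC haplotype, is not given in the sources used here.

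Class I molecules are pairs of a heavy chain and beta-2 microglobulin that show peptides from inside the cell to CD8 T cells, and almost all nucleated cells carry them. Class II molecules show peptides from endosomes to CD4 T cells, and in the heart they are carried mainly by macrophages, dendritic cells and B cells. Interferon gamma raises both sets, through the regulators Nlrc5 for class I and Ciita for class II.

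Each library held between 33457406 and 49965101 counts, with a median of 43738141. Values are given as CPM, counts per 1000000 counts of the genes tested after TMM scaling. A gene was tested if 6 or more of the 10 mice had over 10 counts, which left 13452 genes in all. Among the MHC set, 25 genes were tested: 11 class I chains, 7 class II chains and all 7 partners. Between 73.7% and 80.3% of the counts from 1 to 20 were even numbers in each library, and how read pairs, strands and reads shared by several genes were counted is not given in the sources used here. Values of near-identical genes, and of genes that share exons with another gene, are therefore uncertain. If both reads of a pair were counted, low counts rest on fewer read pairs than their number, which was not tested.

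How far class I genes can be told apart by their reads depends on their sequence, so a stretch that separates 5 of them is shown. It lies in the second coding exon, which encodes the alpha-1 domain, on one side of the peptide-binding groove, and covers bases 187 to 246 of 270 in that exon. Sequences were read from GRCm39, and capitals mark bases that differ from H2-K1. They lie at chr17:34218732-34218791 (minus strand) for H2-K1, and on the plus strand at chr17:35482541-35482600 for H2-D1, chr17:35613519-35613578 for H2-Q5, chr17:35644270-35644329 for H2-Q6 and chr17:35658614-35658673 for H2-Q7.
H2-K1: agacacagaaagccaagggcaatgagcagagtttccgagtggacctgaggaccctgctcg
H2-D1: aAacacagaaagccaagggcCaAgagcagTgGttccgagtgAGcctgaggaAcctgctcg
H2-Q5: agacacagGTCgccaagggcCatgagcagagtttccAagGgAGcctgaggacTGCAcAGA
H2-Q6: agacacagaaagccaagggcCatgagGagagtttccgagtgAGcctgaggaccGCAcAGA
H2-Q7: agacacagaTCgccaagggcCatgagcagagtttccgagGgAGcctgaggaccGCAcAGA
The stretch was chosen as the 60 bases of the exon with the most positions that vary among these 5 genes. At least 1 of the 5 genes differed from the rest at 21 of the 60 positions. H2-Q6 and H2-Q7 differed at 4 of them, and over the whole exon they were identical at 93.0% of bases. H2-K1 and H2-D1 were identical at 91.1%, and H2-T10 and H2-T22 at 98.9%. Of all 100-base windows in the annotated transcripts of a gene, 2.03% for H2-K1 and 2.53% for H2-D1 also occurred in another gene, against 9.05% for H2-Q6, 9.85% for H2-Q7 and 17% for H2-Q5. The class II chains H2-Ab1, H2-Aa and H2-Eb1, and likewise B2m and Cd74, shared no such window with any other gene.

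The promoters of the MHC genes hold short motifs that set their common control, and 180 bases before the RefSeq start of 5 of them are shown, since these genes are among the most abundant of their class. RefSeq promoter sequences (GRCm38.p6) were held for 17 of the 25 genes tested and were placed here on GRCm39 by exact match. The RefSeq start need not be the outer end of the GENCODE gene, and for B2m, H2-D1 and H2-Eb1 the stretch lies inside the GENCODE gene. The table had no entry for H2-Q5, H2-T24, H2-T10, H2-Ab1, Ciita, Tap2, Cd74 and Nlrc5. The coordinates are chr2:121977988-121978167 (plus) for B2m, chr17:34219322-34219501 (minus) for H2-K1, chr17:35481890-35482069 (plus) for H2-D1, chr17:34506798-34506977 (minus) for H2-Aa and chr17:34524661-34524840 (plus) for H2-Eb1. Capitals mark CCAAT, the interferon-type motif TTTCNNTTC, the NF-kB-type motif GGGNNTTCC and AGNAACNG, a core of the X box of class II genes, each searched on both strands, and no match shown overlaps another.
B2m: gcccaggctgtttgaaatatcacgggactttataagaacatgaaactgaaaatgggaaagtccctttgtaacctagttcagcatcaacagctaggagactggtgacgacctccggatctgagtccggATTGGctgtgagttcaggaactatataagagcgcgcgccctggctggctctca
H2-K1: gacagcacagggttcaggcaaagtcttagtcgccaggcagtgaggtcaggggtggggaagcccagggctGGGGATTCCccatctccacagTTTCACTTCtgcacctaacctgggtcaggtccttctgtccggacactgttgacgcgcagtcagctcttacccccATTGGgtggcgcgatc
H2-D1: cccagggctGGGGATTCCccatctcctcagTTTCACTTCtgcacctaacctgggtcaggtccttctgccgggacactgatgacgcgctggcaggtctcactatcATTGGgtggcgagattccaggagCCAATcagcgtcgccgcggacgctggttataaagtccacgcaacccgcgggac
H2-Aa: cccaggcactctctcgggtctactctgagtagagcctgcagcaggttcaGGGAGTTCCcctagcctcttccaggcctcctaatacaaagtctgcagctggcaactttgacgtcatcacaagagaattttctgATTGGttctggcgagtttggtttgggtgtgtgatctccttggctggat
H2-Eb1: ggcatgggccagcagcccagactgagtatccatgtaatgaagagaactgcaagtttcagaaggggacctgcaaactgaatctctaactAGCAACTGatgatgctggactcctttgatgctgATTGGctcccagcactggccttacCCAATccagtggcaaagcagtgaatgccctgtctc
Over the 250 bases before the RefSeq start, CCAAT stood in 16 of the 17 genes and in 34.5% of all 27025 promoters. The interferon-type motif stood in 6 of the 17 genes, all of them class I chains (H2-D1, H2-K1, H2-M3, H2-Q4, H2-Q6 and H2-Q7), and in 6.34% of all promoters. The NF-kB-type motif stood in H2-D1, H2-K1, H2-Q4, H2-Q6, H2-Q7 and H2-Aa, against 4.88% of all promoters, and AGNAACNG in H2-DMb1 and H2-Eb1, against 14.6%. The motifs were chosen with these sequences in view, so the shares are a description and not a test. Only these exact patterns were searched. Related stretches with other spacing, such as gaaactgaaa and gggaaagtccc in B2m, stay in lower case, so a missing match does not show a missing site. These matches describe letters in the reference, and no binding was measured.

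Levels between genes were compared as mean CPM per kb of exon over all 10 mice. B2m stood highest with 74.6 CPM per kb, followed by H2-D1 with 55.2 and H2-K1 with 37.7. The invariant chain Cd74 had 14.8 and tapasin (Tapbp) 14.5 CPM per kb, and the class II chains H2-Ab1, H2-Eb1 and H2-Aa had 6.15, 6.05 and 3.40. H2-K1 and H2-D1, the classical class I genes, made up between 76.6% and 79.9% of the class I signal per kb in every mouse. At the lower end stood Nlrc5 with 0.369, H2-DMb2 with 0.223, H2-Ob with 0.145 and Ciita with 0.124 CPM per kb. Neighbours with near levels, such as Cd74 and Tapbp or H2-Q4 and H2-Eb1, took either order in the genotypes, while B2m, H2-D1 and H2-K1 kept theirs in both.

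**Figure D1:**
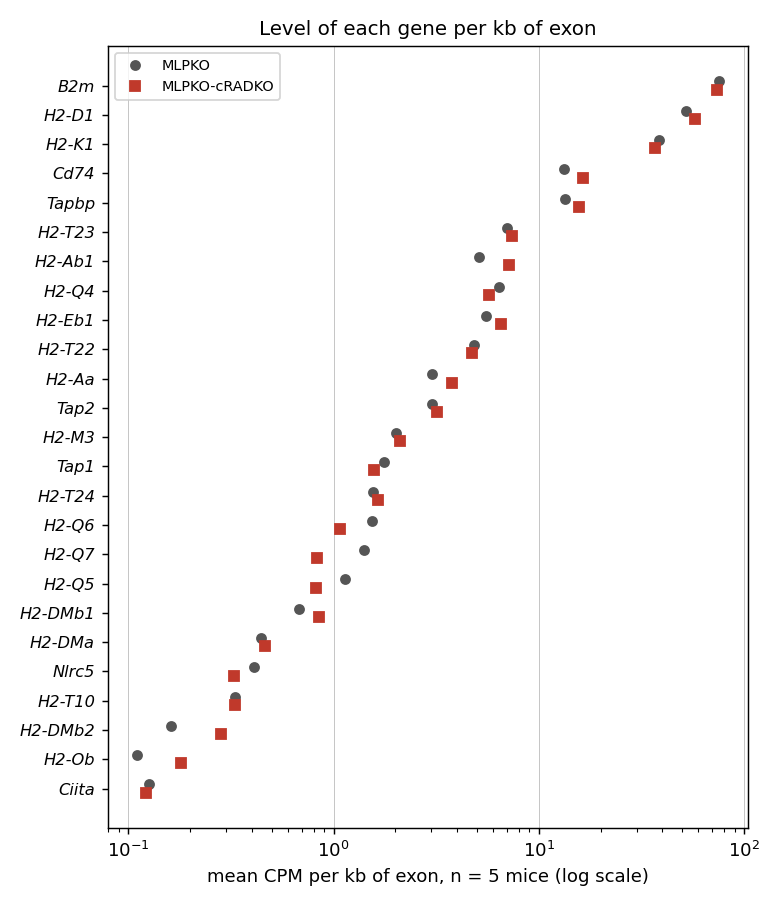
Mean CPM per kb of exon of each tested gene (x axis, log scale) in MLPKO (grey circles) and MLPKO-cRADKO (red squares), n = 5 mice each. B2m, H2-D1 and H2-K1 stand apart at the top with 37.7 to 74.6 CPM per kb over all mice, and Ciita and H2-Ob are lowest with 0.124 and 0.145.

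By edgeR's quasi-likelihood test (n = 5 mice per genotype), none of the 25 genes passed an adjusted p of 0.05, where 2.74% of all genes tested did, 0.944% higher and 1.8% lower in MLPKO-cRADKO. Without adjustment, 4 of the 25 had a p under 0.05 against 21.6% of all genes: Tapbp, H2-DMb2 and H2-Ab1 with higher means in MLPKO-cRADKO, and H2-Q7 with a lower one. DESeq2 called 1 of the 25 (Tapbp), against 9.65% of all genes, and limma-voom called 0, against 340 of all 13452. The values of the genotypes did not overlap for Tapbp and H2-DMb2, 2 of the 25 genes, which compares with 6.62% of all genes. The shares of the 25 genes were thus near or below those of the whole table. The median log2 fold change (MLPKO-cRADKO over MLPKO) was −0.03 for the 11 class I chains, 0.31 for the 7 class II chains and −0.04 for the 7 partners, against 0.01 for all genes. All 7 class II chains had a log2 fold change above 0, as did 4 of the 11 class I chains and 3 of the 7 partners, and 52.1% of all genes.

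**Figure D2:**
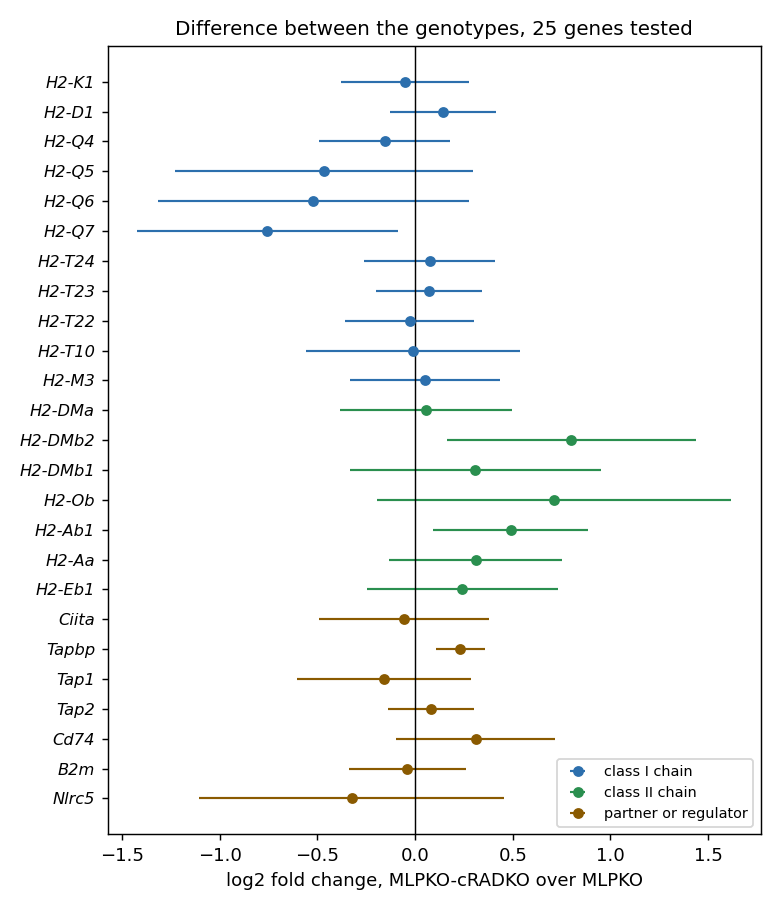
Log2 fold change of MLPKO-cRADKO over MLPKO (x axis) for the 25 genes tested, as points with 95% confidence intervals from edgeR, n = 5 mice per genotype. The class II chains lie right of 0, the class I chains lie on both sides, and the interval of Tapbp (0.11 to 0.36) is the narrowest.

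The class I light chain and the classical heavy chains differed little between the genotypes. B2m (chromosome 2, 121977957 to 121983594) had 206, 136, 164, 141 and 149 CPM in MLPKO mice 1 to 5 and 191, 170, 156, 122 and 135 CPM in MLPKO-cRADKO mice 1 to 5. Its log2 fold change was −0.04 (95% confidence interval −0.34 to 0.26, edgeR adjusted p = 0.903), and the genotypes overlapped widely. H2-K1 (chromosome 17, 34214987 to 34219321) had 168, 103, 126, 114 and 102 CPM in MLPKO and 132, 143, 116, 91.3 and 108 CPM in MLPKO-cRADKO, with a log2 fold change of −0.05 (interval −0.38 to 0.27, edgeR adjusted p = 0.879). For H2-D1 (chromosome 17, 35481691 to 35486475) the values were 200, 140, 166, 141 and 137 CPM in MLPKO and 199, 191, 178, 138 and 160 CPM in MLPKO-cRADKO. Its log2 fold change was 0.14 (interval −0.13 to 0.41, edgeR adjusted p = 0.542), again with overlap between the mice. For each of the 3 genes the interval leaves out a change of 1.5-fold in either direction. Of their exon bases, 26.8% for H2-K1 and 24.2% for H2-D1 are shared with a gene on the other strand, whereas B2m shares none. The 30 class I chains summed to 368 ± 74.3 CPM (SD, n = 5) in MLPKO and 375 ± 56.4 CPM (SD, n = 5) in MLPKO-cRADKO. There were 42.0 to 48.3 CPM of B2m per 100 CPM of class I chains in MLPKO and 39.5 to 44.3 in MLPKO-cRADKO.

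H2-Q7, H2-Q6 and H2-Q5 had the lowest log2 fold changes of the set, and the first 2 encode Qa-2 antigens. H2-Q7 (chromosome 17, 35658131 to 35662749) had 10.6, 4.18, 6.42, 5.17 and 3.53 CPM in MLPKO and 5.33, 4.27, 2.92, 2.60 and 2.67 CPM in MLPKO-cRADKO. Its log2 fold change was −0.76 (SE 0.30, edgeR adjusted p = 0.177), and the adjusted p of DESeq2 was 0.088. MLPKO mouse 1 stood far above the other MLPKO mice, and without it the log2 fold change was −0.44. H2-Q6 (chromosome 17, 35643777 to 35655332) had 8.6, 3.52, 5.25, 4.72 and 4.30 CPM in MLPKO and 6.88, 5.03, 2.43, 1.85 and 2.31 CPM in MLPKO-cRADKO. MLPKO-cRADKO mice 1 and 2 lay within the range of MLPKO, and mice 3, 4 and 5 lay below it. The log2 fold changes of H2-Q6, H2-Q5 and H2-Q4 were −0.52, −0.47 and −0.16, with edgeR adjusted p-values of 0.44, 0.477 and 0.603, and became −0.27, −0.18 and −0.0069 without MLPKO mouse 1. Leaving out single MLPKO-cRADKO mice moved H2-Q6 between −0.86 (without mouse 1) and −0.35 (without mouse 4) and took H2-Q5 to −0.28 (without mouse 3), and without MLPKO mouse 5 H2-Q4 stood at −0.25. H2-Q6 and H2-Q7 together made up 1.97% to 3.22% of the class I signal per kb in MLPKO mice and 1.16% to 2.36% in MLPKO-cRADKO mice, and these ranges overlapped.

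The other nonclassical class I chains lay near 0. H2-T23, which encodes the Qa-1 antigen that presents leader peptides to natural killer cell receptors, had 24.1 ± 4.77 CPM (SD, n = 5) in MLPKO and 25.3 ± 2.50 CPM (SD, n = 5) in MLPKO-cRADKO. H2-T22, a ligand of some gamma delta T cells, had 16.5 ± 3.32 and 16.2 ± 2.73 CPM, and its near copy H2-T10 had 1.13 ± 0.389 and 1.13 ± 0.135 CPM. H2-M3, which binds formylated bacterial and mitochondrial peptides, had 3.69 ± 0.681 and 3.84 ± 0.765 CPM. Across H2-T23, H2-T24, H2-T22, H2-T10 and H2-M3 the log2 fold changes ran from −0.03 to 0.07, and none of the 5 genes had an unadjusted p under 0.05. The remaining 19 class I chains did not pass the count filter. Of these, 9 had 0 counts in every mouse, 14 (those 9 included) had at most 3 counts in any mouse, and the highest single values were 19 counts for H2-Q10 and 14 counts for H2-Q1.

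Class II chains gave the one direction shared by a whole class, without any single gene passing the test. H2-Ab1 (chromosome 17, 34476663 to 34488393), the beta chain of I-A, had 18.5, 9.10, 11.9, 12.3 and 13.8 CPM in MLPKO and 15.6, 15.2, 20.7, 16.7 and 24.1 CPM in MLPKO-cRADKO. All MLPKO mice but mouse 1 lay below every MLPKO-cRADKO mouse. H2-Ab1 had a log2 fold change of 0.49 (interval 0.09 to 0.89, edgeR adjusted p = 0.145), and 0.64 without MLPKO mouse 1. Its partner chain H2-Aa (chromosome 17, 34493404 to 34506798) had 18, 6.85, 15, 13.4 and 11.8 CPM in MLPKO and 15.1, 14.3, 16.7, 14.9 and 20.02 CPM in MLPKO-cRADKO. H2-Eb1 (chromosome 17, 34504236 to 34535648), the beta chain of I-E, had 21.9, 7.92, 15.8, 13.1 and 13.0 CPM in MLPKO and 15.2, 14.6, 16.2, 15.7 and 23.6 CPM in MLPKO-cRADKO. Both genes were lowest in MLPKO mouse 2, their genotypes overlapped, and their log2 fold changes were 0.31 and 0.24 (edgeR adjusted p = 0.405 and 0.577). Without MLPKO mouse 2 these values were 0.15 and 0.09.

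The invariant chain, encoded by Cd74 (chromosome 18, 60936899 to 60945731), holds the groove of class II molecules on their way to the endosome. Cd74 had 45.9, 20.7, 37.8, 32.9 and 29.2 CPM in MLPKO and 36.6, 32.7, 45.0, 40.6 and 51.5 CPM in MLPKO-cRADKO. Its mice stood in the same order as for the class II chains at the ends, with MLPKO mouse 2 lowest and MLPKO-cRADKO mouse 5 highest. The log2 fold change of Cd74 was 0.31 (interval −0.10 to 0.72, edgeR adjusted p = 0.363), and 0.18 without MLPKO mouse 2. Per 100 CPM of class II chains there were 69.0 to 79.4 CPM of Cd74 in MLPKO and 68.3 to 76.2 in MLPKO-cRADKO, so the ratio was narrower than either level. Summed over the 10 chains, class II stood at 44.6 ± 13.1 CPM (SD, n = 5) in MLPKO and 56.7 ± 10.1 CPM (SD, n = 5) in MLPKO-cRADKO.

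DM and DO steer which peptide a class II molecule keeps: DM removes the invariant chain fragment and DO holds DM back. H2-DMb2 (chromosome 17, 34362197 to 34370529), a DM beta chain, had 0.324, 0.317, 0.296, 0.267 and 0.309 CPM in MLPKO and 0.359, 0.348, 0.819, 0.534 and 0.588 CPM in MLPKO-cRADKO, without overlap. These values rest on 10 to 30 counts per mouse, which may stand for fewer read pairs. H2-DMb2 had a log2 fold change of 0.80 (SE 0.29, edgeR adjusted p = 0.138), and DESeq2 gave no adjusted p. Its neighbour H2-DMb1, with which it shares 8.71% of its 100-base windows, had 1.14 ± 0.384 and 1.42 ± 0.424 CPM (SD, n = 5), a log2 fold change of 0.31 that became 0.13 without MLPKO mouse 2 and 0.16 without MLPKO-cRADKO mouse 5. H2-DMa (chromosome 17, 34338515 to 34358958), the DM alpha chain, had 2.68, 1.27, 2.11, 1.79 and 1.72 CPM in MLPKO and 1.98, 1.72, 2.05, 2.43 and 1.83 CPM in MLPKO-cRADKO, and the genotypes overlapped throughout. Log2 fold changes were 0.06 for H2-DMa and 0.71 for H2-Ob, the DO beta chain, whose values overlapped (edgeR adjusted p = 0.902 and 0.348). Without MLPKO-cRADKO mouse 4 that of H2-Ob was 0.43. H2-Oa, the DO alpha chain, had 0 to 8 counts per mouse, H2-Eb2 0 to 8 and H2-Ea 0 to 2, all below the filter. Ciita (chromosome 16, 10297923 to 10347694), the master regulator of class II, had 1.57, 1.33, 1.32, 1.6 and 1.17 CPM in MLPKO and 1.5, 1.15, 1.58, 0.935 and 1.56 CPM in MLPKO-cRADKO. Its log2 fold change of −0.06 (interval −0.49 to 0.38, edgeR adjusted p = 0.901) was within the spread between mice.

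**Figure D3:**
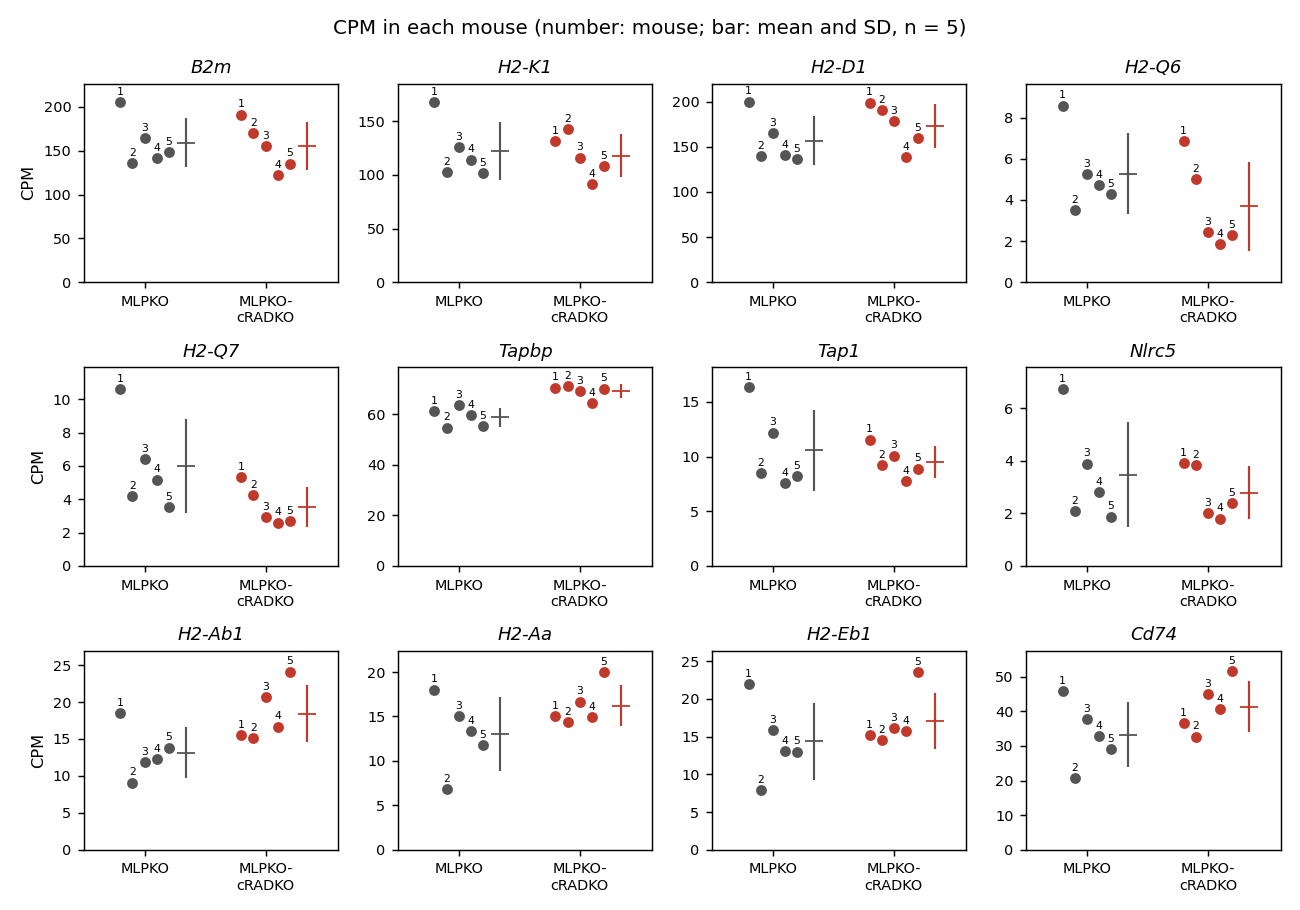
CPM of 12 genes in each mouse (y axis, from 0), with MLPKO in grey and MLPKO-cRADKO in red; numbers are mouse numbers, and the bar beside each group is the mean with its SD (n = 5). Tapbp does not overlap between the genotypes, H2-Ab1 overlaps through MLPKO mouse 1, and the remaining genes overlap more widely.

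Among the peptide-loading genes, Tapbp came nearest to the threshold. Tapbp (chromosome 17, 34134873 to 34148267) encodes tapasin, which bridges the peptide transporter and class I molecules in the endoplasmic reticulum. It had 61.3, 54.8, 63.6, 59.6 and 55.5 CPM in MLPKO and 70.7, 71.3, 69.3, 64.4 and 70.3 CPM in MLPKO-cRADKO, with every MLPKO-cRADKO mouse above every MLPKO mouse. The log2 fold change of Tapbp was 0.23 (SE 0.06, 95% confidence interval 0.11 to 0.36, edgeR adjusted p = 0.0559). DESeq2 gave an adjusted p of 0.00826, limma-voom 0.0551, and edgeR with upper-quartile factors 0.0481. Leaving out 1 mouse at a time gave log2 fold changes of 0.21 to 0.27 and edgeR adjusted p-values of 0.0535 to 0.128. Other genes share 52.8% of the exon bases of Tapbp, among them Zbtb22 on the same strand, which had 19.4 ± 0.966 CPM in MLPKO and 18.6 ± 1.75 CPM in MLPKO-cRADKO (SD, n = 5) and a log2 fold change of −0.06 (edgeR adjusted p = 0.703). How reads in the shared bases were assigned cannot be told from the counts.

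The peptide transporter genes and the class I regulator showed no such separation. Tap1 (chromosome 17, 34405996 to 34416199) had 16.3, 8.49, 12.2, 7.60 and 8.23 CPM in MLPKO and 11.6, 9.21, 10.1, 7.73 and 8.89 CPM in MLPKO-cRADKO. Tap2 (chromosome 17, 34422501 to 34435829) had 17.3, 12.0, 16.2, 13.8 and 12.3 CPM in MLPKO and 14.9, 15.1, 15.7, 15.3 and 14.8 CPM in MLPKO-cRADKO. For both genes the MLPKO-cRADKO mice lay within the range of MLPKO. They had log2 fold changes of −0.16 for Tap1 and 0.08 for Tap2 (edgeR adjusted p = 0.703 and 0.696). Nlrc5 (chromosome 8, 95160984 to 95253900), the regulator of class I genes, had 6.73, 2.09, 3.89, 2.80 and 1.88 CPM in MLPKO and 3.92, 3.83, 2.02, 1.80 and 2.38 CPM in MLPKO-cRADKO. The highest value was again that of MLPKO mouse 1, and in MLPKO-cRADKO mice 1 and 2 lay above mice 3, 4 and 5, as for H2-Q6. The log2 fold change of −0.32 for Nlrc5 (edgeR adjusted p = 0.652) became 0.06 without MLPKO mouse 1, and that of Tap1 became 0.05.

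Most of these genes varied more between mice of 1 genotype than the median gene, 22 of the 25 in MLPKO and 21 of the 25 in MLPKO-cRADKO, but Tapbp varied less in both. The highest value of a gene was a median of 2.03 times its lowest in MLPKO and 1.56 times in MLPKO-cRADKO over the 25 genes, against 1.38 and 1.30 times over all genes tested and 1.16 and 1.11 times for Tapbp. MLPKO mouse 1 was the highest of its genotype in 19 of the 25 genes: 8 of 11 class I chains, 6 of 7 class II chains and 5 of 7 partners. MLPKO mouse 2 was lowest in 12 genes and mouse 5 in 10. In MLPKO-cRADKO the classes parted. Mouse 1 was highest and mouse 4 lowest in 8 of the 11 class I chains each, whereas mouse 5 was highest in 4 and mouse 2 lowest in 6 of the 7 class II chains. Genes of 1 mouse share a library, so these counts describe the mice and are not independent. The median log2 fold change of the class I chains went from −0.03 to 0.09 without MLPKO mouse 1, and that of the class II chains went from 0.31 to 0.46 without it and to 0.15 without MLPKO mouse 2.

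**Figure D4:**
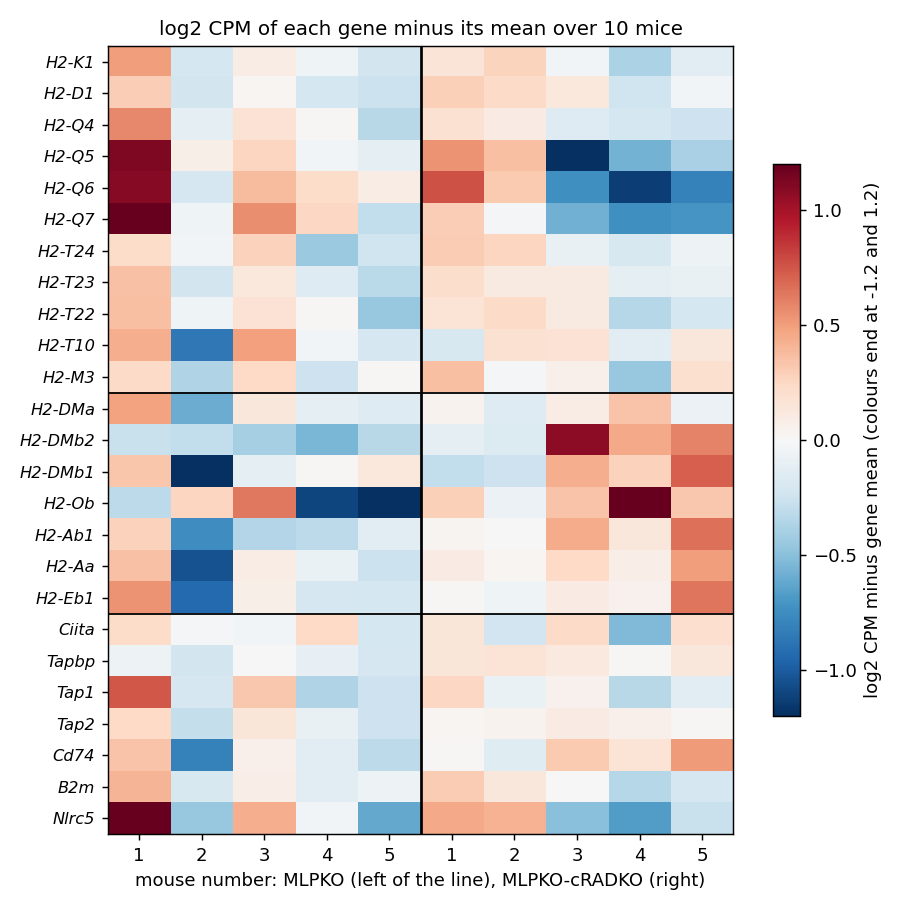
Log2 CPM of the 25 genes (rows, in the order class I, class II, partners, split by horizontal lines) minus each gene's mean over the 10 mice (columns, MLPKO left of the vertical line). MLPKO mouse 1 is red in most rows and is highest of its genotype in 19 of 25. Tapbp is paler than its neighbours, with near-white or faintly blue cells in MLPKO and near-white or faintly red cells in MLPKO-cRADKO.

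Genes that act around the MHC were taken as 7 lists, of which 55 of 58 genes were tested. The edgeR test called 1 of the 55 (Gbp6, higher), DESeq2 2 and limma-voom 1. These shares were below those of all genes (2.74% for edgeR, 9.65% for DESeq2 and 340 of 13452 for limma-voom). Gbp6, an interferon-induced guanylate-binding protein, had 11.1, 5.55, 13.0, 10.8 and 7.92 CPM in MLPKO and 16.4, 16.7, 22.8, 19.1 and 19.3 CPM in MLPKO-cRADKO, without overlap. Its log2 fold change was 0.96 (edgeR adjusted p = 0.029), and with 1 mouse left out it lay between 0.82 and 1.09 and was called in 4 of the 10 fits. Its list of 13 interferon-gamma-induced GTPases had a median log2 fold change of −0.04, with 4 above and 9 below 0, and its other 12 genes were not called. Ctss, the gene for cathepsin S, which cuts the invariant chain, had 7.80 ± 1.23 CPM in MLPKO and 13.0 ± 3.55 CPM in MLPKO-cRADKO (SD, n = 5) without overlap. The log2 fold change of Ctss was 0.73 (edgeR adjusted p = 0.0518, DESeq2 adjusted p = 0.00286). Of the 7 class II processing genes, edgeR called 0 (2 had an unadjusted p under 0.05), limma-voom 0 and DESeq2 1, Ctss, and the median log2 fold change over that list was 0.01.

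The immunoproteasome genes, which shape peptides for class I, stood at similar levels in both genotypes. Log2 fold changes over its 5 genes ran from −0.08 to 0.21, with 6.15 ± 1.71 and 7.16 ± 1.01 CPM (SD, n = 5) for Psmb8. Over the 5 other class I loading genes, such as calreticulin (Calr) and Erap1, they ran from −0.01 to 0.20. Among the regulators of MHC transcription, log2 fold changes were 0.19 for Socs1, 0.17 for Irf1, 0.03 for Rfx5, and for the CCAAT-binding factor genes Nfya, Nfyb and Nfyc 0.11, 0.14 and 0.03. Of the co-stimulatory genes, Cd80 and Cd86 had log2 fold changes of −0.10 and 0.06, and Cd274, the gene for PD-L1, −0.29, which became −0.04 without MLPKO mouse 1. The edgeR and DESeq2 tests called none of the genes in these 4 lists or among the 5 tested class I-like genes outside the MHC, and none of them had an unadjusted edgeR p under 0.05.

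Markers of the cells that could carry class II RNA were counted in the same libraries. In whole tissue, fewer cells of a type and less RNA per cell cannot be told apart. The 13 macrophage and monocyte markers summed to 197, 168, 177, 230 and 162 CPM in MLPKO and 247, 197, 353, 223 and 275 CPM in MLPKO-cRADKO. Of these markers, 12 had a log2 fold change above 0 (median 0.46), 10 had an unadjusted p under 0.05, the edgeR test called 0 and limma-voom 0, and DESeq2 called 5, Adgre1, Csf1r, C1qc, Cd163 and Ccr2. Over all genes the shares were 21.6% at an unadjusted p under 0.05, 2.74% for edgeR, 9.65% for DESeq2 and 340 of 13452 for limma-voom. The 4 pan-leukocyte markers, Ptprc among them, summed to 27.2 to 33.9 CPM in MLPKO and 31.9 to 59.0 CPM in MLPKO-cRADKO. All 4 had a log2 fold change above 0 (median 0.44), and 3 had an unadjusted edgeR p under 0.05. Of these 4, edgeR called 0, limma-voom 0 and DESeq2 2. Per 100 CPM of macrophage and monocyte markers there were 32.3, 16.2, 26.9, 18.4 and 26.1 CPM of class II chains in MLPKO and 20.3, 24.3, 16.7, 24.1 and 26.5 CPM in MLPKO-cRADKO. On that scale the class II means were 24.0 ± 6.59 and 22.4 ± 3.89 (SD, n = 5), and the MLPKO-cRADKO mice lay within the MLPKO range. The class II sums overlapped before scaling too (27.1 to 63.6 CPM in MLPKO, 47.9 to 73.1 in MLPKO-cRADKO). Class II was highest in MLPKO mouse 1 and MLPKO-cRADKO mouse 5, the macrophage and monocyte sum in MLPKO mouse 4 and MLPKO-cRADKO mouse 3. In MLPKO-cRADKO both were lowest in mouse 2. The part of macrophages, monocytes or other leukocytes in the class II levels was not tested.

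Lymphocyte markers, and most dendritic cell markers, were sparse. The 8 T cell markers summed to 1.07 to 2.03 CPM in MLPKO and 1.52 to 1.97 CPM in MLPKO-cRADKO, and only Cd4 among them passed the filter. The 4 natural killer cell markers summed to 0.127 to 0.971 CPM over all mice, and the 5 B cell markers to 1.63 to 5.59 CPM in MLPKO and 2.06 to 7.4 CPM in MLPKO-cRADKO. The 8 dendritic cell markers summed to 20.5 to 22.0 CPM in MLPKO and 21.5 to 26.0 CPM in MLPKO-cRADKO, most of it from Zbtb46 with 16.2 ± 1.40 and 18.1 ± 1.46 CPM (SD, n = 5). Which cells the Zbtb46 RNA came from was not tested, so this sum need not follow dendritic cells. Of the other dendritic cell genes, Clec9a had 60 to 144 and Clec10a 15 to 120 counts per mouse, Itgax 4 to 36, Ccr7 2 to 28, Xcr1 2 to 10 and Flt3 0 to 8. Cd209a, below the filter with 2 to 26 counts and so not tested, had 0.0462 to 0.213 CPM in MLPKO and 0.271 to 0.566 CPM in MLPKO-cRADKO. These values did not overlap, but they rest on few reads of 1 of the 8 genes. The 6.62% of all genes without overlap covers tested genes only, so it gives no measure for Cd209a. None of the markers tested in these lists was called by edgeR or DESeq2, or had an unadjusted p under 0.05.

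Markers of the other heart cells moved in the same libraries and are given beside Tapbp. The 7 endothelial markers summed to 722 to 810 CPM in MLPKO and 849 to 972 CPM in MLPKO-cRADKO, and the 5 cardiomyocyte markers to 46890 to 55000 CPM and 35180 to 46530 CPM, both without overlap. Most of the cardiomyocyte sum came from Myh6, with 33030 to 40230 CPM in MLPKO and 25410 to 34370 CPM in MLPKO-cRADKO. The edgeR test called 1 of the 7 endothelial markers, Tek, and 1 of the 5 cardiomyocyte markers, Tnnt2. Likewise limma-voom called 1 of each list, and DESeq2 called 3 of each. An unadjusted edgeR p under 0.05 was found for 7 endothelial and 3 cardiomyocyte markers. The shares of all genes were 2.74% for edgeR, 9.65% for DESeq2, 340 of 13452 for limma-voom and 21.6% at an unadjusted p under 0.05. Tek had 48.6, 52.5, 51.7, 54.2 and 49.0 CPM in MLPKO and 64.6, 61.3, 66.2, 66.3 and 60.2 CPM in MLPKO-cRADKO, a log2 fold change of 0.32 (edgeR adjusted p = 0.0196). Tnnt2 had 6386, 7194, 6252, 6572 and 7971 CPM in MLPKO and 4905, 5075, 3894, 4844 and 4506 CPM in MLPKO-cRADKO, a log2 fold change of −0.57 (edgeR adjusted p = 0.0185). Both were without overlap and were called in 9 of the 10 fits that left out a mouse, Tek in all but that without MLPKO mouse 5 and Tnnt2 in all but that without MLPKO-cRADKO mouse 5. The paper names TNNT2 among the target genes of effectors such as GATA4 that fell with RAD knockout. The part of such regulation in the cardiomyocyte sum was not tested. Of the 5 cardiomyocyte markers, 4 had a log2 fold change below 0, and Tnni3 had one of 0.13 (edgeR adjusted p = 0.421). All 7 endothelial markers had log2 fold changes above 0, from 0.16 to 0.32, a range that holds the 0.23 of Tapbp. Per 100 CPM of endothelial markers there were 8.49, 6.82, 7.85, 7.91 and 7.22 CPM of Tapbp in MLPKO and 8.32, 7.66, 7.12, 7.34 and 7.88 CPM in MLPKO-cRADKO. On that scale the genotypes overlapped fully, and the part of endothelial RNA in the level of Tapbp was not tested. The 4 fibroblast markers had log2 fold changes between −0.17 and 0.21, and none was called.

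**Figure D5:**
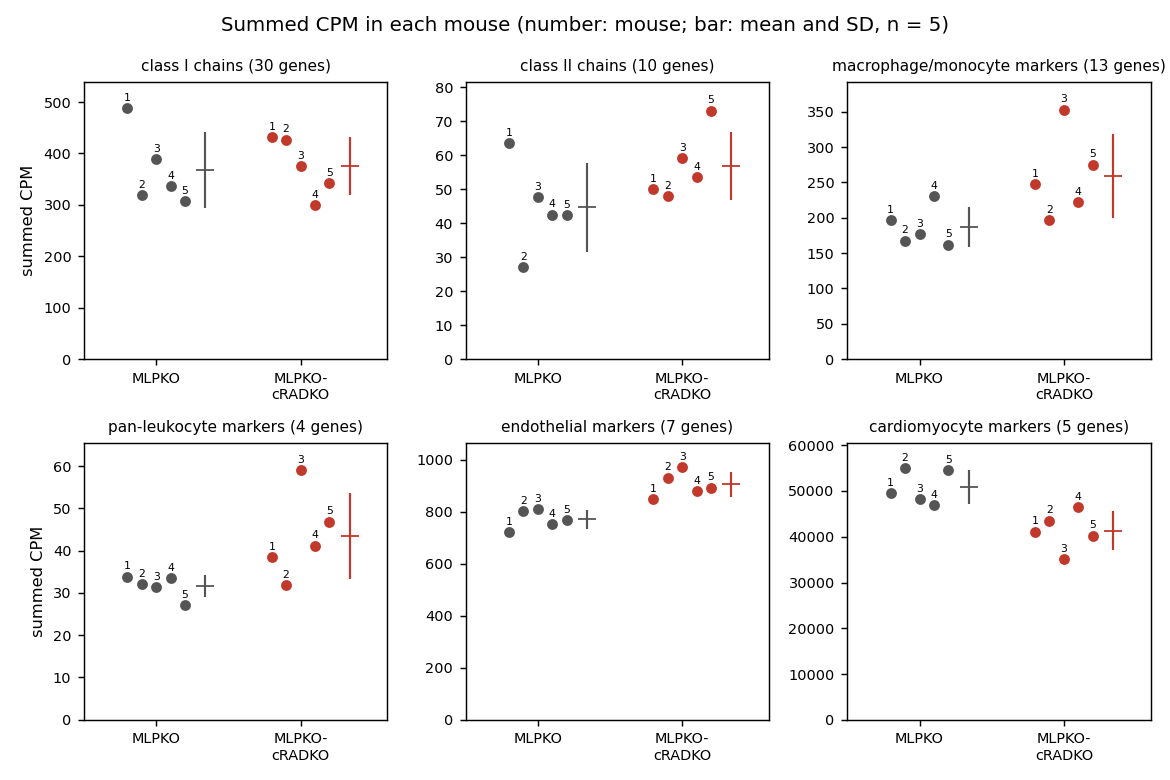
Summed CPM in each mouse (y axis, from 0) of the class I and class II chains and of marker genes of 4 cell populations, MLPKO in grey and MLPKO-cRADKO in red; numbers are mouse numbers, and bars are the mean with its SD (n = 5). Class I, class II and macrophage sums overlap, and endothelial and cardiomyocyte sums do not overlap.

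The genes that lie between the MHC genes on chromosome 17 were compared as well. Between the start of H2-K1 and the end of H2-M3 (34214987 to 37585384), 126 other protein-coding genes are annotated, some of them also in the lists above, and 77 were tested. The edgeR test called 3 of the 77, DESeq2 8 and limma-voom 3. These shares were near those of all genes (2.74% for edgeR, 9.65% for DESeq2 and 340 of 13452 for limma-voom). C4b, the gene for complement component C4, had 24.8, 28.6, 27.8, 22.2 and 30.4 CPM in MLPKO and 56.4, 31.6, 78.3, 41.1 and 58.1 CPM in MLPKO-cRADKO, a log2 fold change of 0.99 (edgeR adjusted p = 0.0302). It was called in 5 of the 10 fits that left out a mouse. Ddr1, the gene for a collagen receptor, had 54.4, 72.1, 56.4, 51.5 and 51.2 CPM in MLPKO and 42.1, 35.8, 31.5, 35.4 and 33.7 CPM in MLPKO-cRADKO, a log2 fold change of −0.68 (edgeR adjusted p = 0.0158). Each of these 10 fits called it. Gnl1 had 44.0, 48.5, 44.1, 40.4 and 46.1 CPM in MLPKO and 35.9, 34.8, 37.8, 37.9 and 39.7 CPM in MLPKO-cRADKO, a log2 fold change of −0.26 (edgeR adjusted p = 0.0475). The call of Gnl1 held in 1 of the 10 fits, that without MLPKO mouse 4, and was lost with upper-quartile factors, without the low-count filter, with Gm and Rik names kept and with the replicate block. For all 3 the genotypes were apart in every mouse. The median log2 fold change over the 77 genes was −0.03, with 35 above and 42 below 0.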

How the data were processed

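Gene counts of 10 mouse ventricle libraries (poly(A) RNA, 5 mice per genotype) were analysed. The authors checked reads with FastQC, used STAR for alignment to GRCm39 and featureCounts for counting, and deposited raw counts per gene that are not normalized. The table held 60676 rows, of which 3491 had no value and were dropped. GENCODE M39 gave names and positions. As in the study's methods, the filter asked for over 10 counts in 6 or more of the 10 mice and dropped genes with Gm or Rik names.

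Both genotypes entered a quasi-likelihood fit in edgeR 4.0.16 (R 4.3.3) with TMM factors and Benjamini-Hochberg adjustment over all 13452 genes, at an adjusted p under 0.05. DESeq2 1.42.0, the tool of the study, and limma-voom (limma 3.58.1) were alternatives, as were RLE and upper-quartile factors, other filters (none, that of edgeR, or with Gm and Rik names kept), robust dispersion, a replicate block and leaving out each mouse. The test was checked on simulated data. CPM were computed from TMM-scaled library sizes of the genes tested. Tables and figures were made in Python 3.11.15 with numpy 2.4.6, pandas 2.3.3 and matplotlib 3.10.9.

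Every gene of the set was accounted for. Values of every mouse were given for B2m, Cd74, H2-K1, H2-D1, H2-Aa, H2-Ab1, H2-Eb1, H2-DMa, Tap1, Tap2, Tapbp, Ciita and Nlrc5, and of the lists the genes with an edgeR adjusted p under 0.05. H2-Q6, H2-Q7, H2-DMb2, Ctss and Zbtb22, the other list genes named, and the ratios to marker sums, were chosen after their values were seen. The motifs were chosen with the sequences in view. The set and the lists were chosen with earlier results of these data known. P-values set the difference between the genotypes against the spread between the mice of each genotype.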

Additional observations from a re-analysis of the deposited data

Results flagged for a closer look

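Over the 25 genes tested, the highest and lowest mouse of each genotype were compared with the other 4, in 50 groups of 5 mice. In 3 groups the gap of 1 mouse was above 0.71 of the whole range, the critical value of Dixon's test, where chance gives about 1 in 20 groups. H2-Q5 had 3.1 CPM in MLPKO mouse 1, against 1.32 to 1.70 CPM in the other MLPKO mice. H2-Ob had 1.67 CPM in MLPKO-cRADKO mouse 4, against 0.653 to 0.874 CPM in the others of that genotype. H2-Eb1 had 23.6 CPM in MLPKO-cRADKO mouse 5, against 14.5 to 16.2 CPM.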

How the results depend on the processing

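Of the 25 genes, 15 kept the sign of their log2 fold change in all 19 alternatives and 1 (Tapbp) was called in any. No class I or class II chain was called in any alternative (0 to 0 with each mouse left out). Among the partners, DESeq2 and upper-quartile factors called 1, Tapbp. DESeq2 and upper-quartile factors called 2 of the 55 pathway list genes. DESeq2 called 13 of the 43 marker genes and 8 of the 77 genes of the MHC interval. Over all genes DESeq2 called 9.65%, and upper-quartile factors called 382 of 13452. With each mouse left out, the counts ran from 0 to 1 for the pathway lists (0 without MLPKO mouse 1 or 5 or MLPKO-cRADKO mouse 3, 4 or 5, and Ctss in place of Gbp6 without MLPKO-cRADKO mouse 2), 1 to 8 for the markers (8 without MLPKO mouse 4, 4 without MLPKO-cRADKO mouse 2, 1 without either mouse 5) and 1 to 4 for the interval (1, Ddr1, without MLPKO mouse 1 or 5 or MLPKO-cRADKO mouse 1, 3 or 5). Over all 13452 genes the counts ran from 47 (without MLPKO mouse 5) to 828 (without MLPKO mouse 4). They were 142 without MLPKO-cRADKO mouse 2 and 50 without MLPKO-cRADKO mouse 5. The sign changed for H2-T10 with limma-voom (0.0232), upper-quartile factors (0.0097) and the replicate block (0.0462). With a mouse left out it changed within these ranges: H2-K1 −0.13 to 0.0867, H2-T24 −0.0145 to 0.17, H2-T22 −0.13 to 0.0685, H2-T10 −0.16 to 0.1335, H2-M3 −0.0358 to 0.16, H2-DMa −0.0538 to 0.21, Ciita −0.12 to 0.0541, Tap1 −0.26 to 0.0522, B2m −0.13 to 0.0706 and Nlrc5 −0.48 to 0.0598. The cause was not tested.

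All 7 class II chains stayed above 0 in every alternative except without MLPKO mouse 2 or without MLPKO-cRADKO mouse 4, where H2-DMa was below it. Both genotypes use mouse numbers 1 to 5. Same-numbered deviations from the group means correlated at −0.04 to 0.15, which alone cannot show whether the numbers pair the mice. With the replicate block, 281 genes were called instead of 369, with 0 class I chains, 0 class II chains and 0 partners among them. The 22 genes below the filter could not be compared at these counts, and H2-DMb2 rests on 10 to 30 counts per mouse; why the 22 were low was not tested.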
